A study of Mus musculus with 6 samples.

Results

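The genes described here are 8 transcription factor genes of E10 mouse eye tissue, the COUP-TF orphan nuclear receptors *Nr2f1*, *Nr2f2* and *Nr2f6* and the TALE homeobox genes *Meis1*, *Meis2*, *Meis3*, *Pbx2* and *Pbx3*. They were chosen by name, as a set of regulators linked to retinoic acid (RA), and all 8 were found among the 26437 genes of the deposited table. The study compared wild-type (WT) embryos with *Rdh10*-/- embryos (*Rdh10* KO). In these the gene for a retinol dehydrogenase that makes retinaldehyde, the precursor of RA, is knocked out in the whole embryo. Both groups were collected at E10 from matings of heterozygous parents on an outbred background that combined Black Swiss with C57BL/6, and no treatment was given. The labels call the tissue eye in one place and craniofacial in another. The frontal head with both optic vesicles, the frontonasal region and some forebrain was dissected, so the eye was not separated from the face, and RNA was pooled from 3 embryos for each of 3 libraries per group.

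COUP-TFs are nuclear receptors without an established physiological ligand. They bind direct repeats of the same hexamer that RA receptors use, and they often act as repressors. In the mouse head NR2F1 and NR2F2 pattern the forebrain and take part in early optic vesicle development, and NR2F2 also specifies venous endothelium. MEIS and PBX proteins carry a homeodomain with an extra loop of 3 amino acids (TALE), form dimers with each other, and serve as DNA-binding partners of HOX and other factors. *Meis1* and *Meis2* are known to be needed for eye development and for neural crest derivatives of the face.

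*Rarb* has an RA response element (RARE) that has become the textbook example, and its promoter is shown as the reference for the sequence searched for in the members. *Nr2f2* and *Nr2f6* are shown because they had the lowest adjusted p-values among the 8 genes. Each line gives the 250 bases before the RefSeq start on GRCm38.p6, 5′ to 3′ on the gene's own strand (minus for these genes), with capitals for the hexamers AGGTCA or AGTTCA or GGGTCA or GGTTCA and for the MEIS motif TGACAG on either strand.
Rarb, chr14:16575477-16575726: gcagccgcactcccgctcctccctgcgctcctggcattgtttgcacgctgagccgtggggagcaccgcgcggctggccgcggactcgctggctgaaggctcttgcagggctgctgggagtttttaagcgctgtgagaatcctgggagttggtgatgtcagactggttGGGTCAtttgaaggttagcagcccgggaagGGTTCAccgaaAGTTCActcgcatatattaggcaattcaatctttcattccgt
Nr2f2, chr7:70366747-70366996: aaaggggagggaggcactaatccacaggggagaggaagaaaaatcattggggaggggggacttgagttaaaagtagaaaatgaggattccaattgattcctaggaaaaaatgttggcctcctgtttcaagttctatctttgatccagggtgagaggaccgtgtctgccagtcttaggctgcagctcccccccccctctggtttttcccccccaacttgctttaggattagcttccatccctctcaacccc
Nr2f6, chr8:71381953-71382202: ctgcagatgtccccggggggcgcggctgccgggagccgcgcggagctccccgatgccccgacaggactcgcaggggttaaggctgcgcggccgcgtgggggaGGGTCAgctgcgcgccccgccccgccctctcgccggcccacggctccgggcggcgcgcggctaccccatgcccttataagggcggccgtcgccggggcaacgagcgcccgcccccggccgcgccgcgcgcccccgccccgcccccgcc
In *Rarb* a pair of hexamers with 5 bases between them (DR5) begins 53 bases before the start. RefSeq windows were found for 7 of the 8 members, and *Nr2f1* has 2 of them. A single hexamer lay in 3 of these 8 windows (*Nr2f1*, *Nr2f6* and *Meis3*), against 38.6% of 32851 windows in the genome. A direct repeat with 1, 2 or 5 bases between the hexamers lay in 0 of the 8, against 0.426% of all windows, and TGACAG in 0 of the 8, against 15.9%. The PBX motif TGATTGAT was also in 0 of the 8, against 0.67%. These letters were searched only in these windows, and RAREs often lie far from promoters.

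Each library held between 16392777 and 27101025 reads on genes. *Rdh10* itself had 399, 342 and 381 normalized counts (reads divided by 1 size factor per library) in WT and 183, 142 and 181 in *Rdh10* KO, so that 45.1% of its transcript level remained (log2 fold change −1.16 with an SE of 0.13, limma adjusted p = 7.35e-05). Marker genes were summed in every library for cranial mesenchyme, optic vesicle and retina, forebrain, surface ectoderm, endothelium, blood and heart. The heart sum was low, 66.8 to 97.2 normalized counts in WT and 107 to 268 in *Rdh10* KO, and does not show that heart tissue was present. *Rdh10* KO replicate 1 stood apart, with 3024 normalized counts for 6 optic vesicle and retina markers and 2672 for 6 forebrain markers, where the other 5 libraries had 4481 to 4706 and 3433 to 4102. Its 5 blood markers summed to 49404, against 97600 to 151516 in the others. In such bulk tissue, fewer cells of a type and less RNA per cell cannot be told apart.

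All 8 genes were well expressed, with between 461 and 6317 reads in any library. On a scale per exon length (FPKM computed from the recovered reads and all annotated exons), *Pbx2* had the highest level in WT tissue, 68.7 ± 2.40 (SD, n = 3), followed by *Nr2f6* with 57.1 ± 2.78 and *Nr2f1* with 36.1 ± 0.925. *Nr2f2* came next with 14.1 ± 0.576. *Pbx3* (11.2 ± 0.342) and *Meis3* (10.6 ± 1.42) overlapped in their WT libraries, as did *Meis3* and *Meis2* (8.59 ± 0.841), and *Meis1* was lowest with 4.38 ± 0.193. In *Rdh10* KO the order of means was the same but for *Meis2* (9.31 ± 0.229) and *Meis3* (8.84 ± 0.945), which changed places and overlapped. Levels in *Rdh10* KO reached from 3.98 ± 0.347 for *Meis1* to 65.8 ± 3.09 for *Pbx2*.

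**Figure D1:**
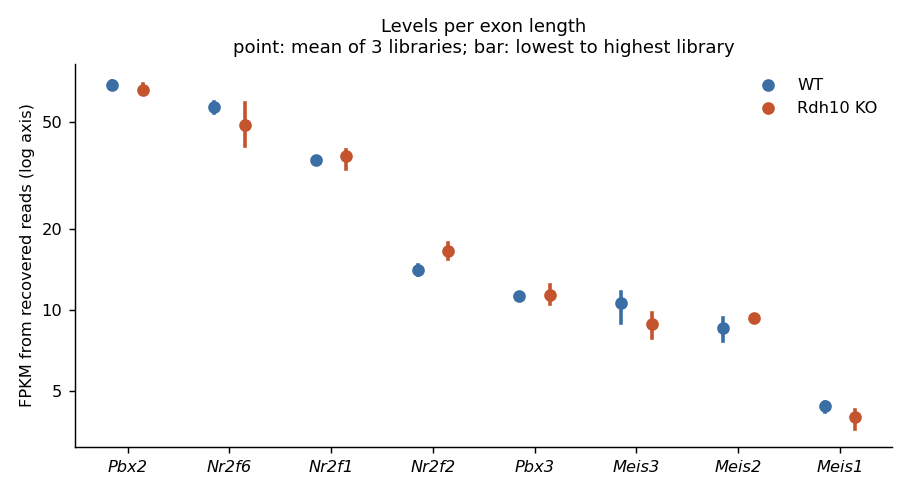
FPKM from recovered reads (log axis) of the 8 genes in WT (blue) and *Rdh10* KO (orange), points for means of 3 libraries and bars from the lowest to the highest library. *Pbx2* is highest and *Meis1* lowest in both groups, and each pair of points lies close together.

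With RA synthesis impaired, 7 of the 8 genes did not pass the test, and *Nr2f2* rose slightly. Fold changes were tested with limma on log2(normalized counts + 0.1) over 22921 genes, with Benjamini–Hochberg adjustment over all of them and a call at an adjusted p-value under 0.05. Of the 8 genes, 1 was called higher and 0 lower, where 10.3% of all genes tested were called higher and 9.12% lower (19.4% in all). At an unadjusted p-value under 0.05, 2 of the 8 were lower (*Nr2f6* and *Meis3*) and 1 higher, against 30.7% of all genes. Each of the 8 has a mean above 500 normalized counts, and 40.0% of the 7356 genes above that mean were called in one direction or the other. The groups did not overlap for 1 of the 8, which was higher in *Rdh10* KO, against 34.6% of all genes tested (17.6% higher). The median log2 fold change was −0.032 for the 8 genes and 0.0036 for all genes tested, and the median size of a change, whatever its direction, was 0.13 for the 8 genes and 0.20 for genes with a mean above 500. None of the 8 reached the study's log2 cut-off of 0.85, which together with the adjusted p-value was passed by 3.29% of all genes tested (0.886% lower and 2.41% higher).

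**Figure D2:**
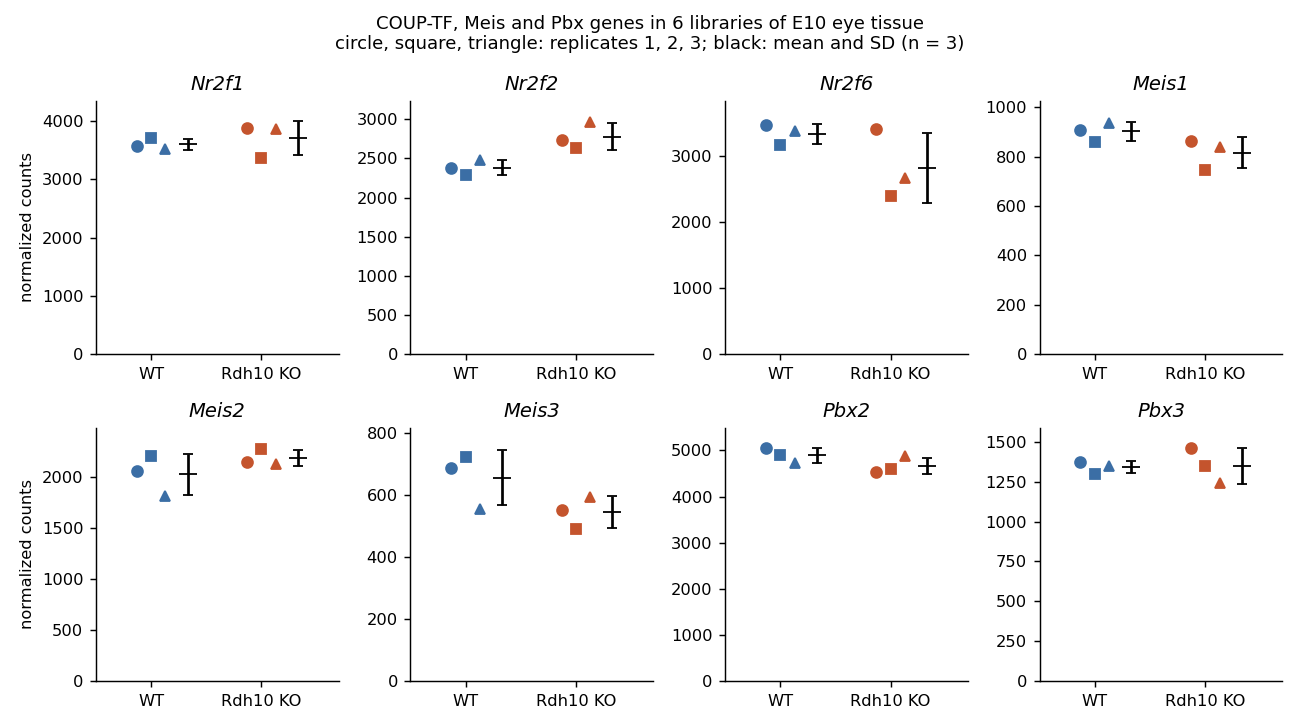
Normalized counts of the 8 genes in each library (circle, square and triangle for replicates 1, 2 and 3) of WT (blue) and *Rdh10* KO (orange), with mean and SD (n = 3) in black. Of the panels, that of *Nr2f2* has all *Rdh10* KO points above all WT points, and *Nr2f6* has 1 *Rdh10* KO point level with WT.

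Among the COUP-TF receptors, *Nr2f2* (COUP-TFII, ENSMUSG00000030551.14, chromosome 7, 70351944 to 70366735, minus strand) had 2382, 2290 and 2479 normalized counts in WT and 2739, 2635 and 2963 in *Rdh10* KO. Every *Rdh10* KO library lay above every WT library. The mean was 2383 ± 94.2 in WT and 2779 ± 167 in *Rdh10* KO (SD, n = 3), or 117% of WT. The log2 fold change was 0.22 (SE 0.071, 95% confidence interval 0.067 to 0.37, adjusted p = 0.0433, limma), and the exact two-sided permutation test gave p = 0.1, the smallest that 3 libraries against 3 allow. Count tests on the recovered reads also called it, with adjusted p-values of 0.0303 (edgeR) and 0.0219 (DESeq2). The call was lost when any 1 of the 6 libraries was left out (adjusted p = 0.0529 to 0.186, limma, log2 fold change 0.17 to 0.26). It was also lost after median scaling of the libraries (log2 fold change 0.13, adjusted p = 0.231) or a correction for GC content and length (0.080, adjusted p = 0.473), after quantile normalization (adjusted p = 0.0618), without the intensity trend of limma (0.196) and with the replicate number as a block (0.0828). Over all genes, calls higher numbered 2360 as reported, 850 to 1983 with 1 library left out and 448 without the trend. Calls lower numbered 2091 as reported, 427 to 1895 with 1 library left out and 197 without the trend. Losses of calls given below stand beside these counts.

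*Nr2f1* (COUP-TFI, ENSMUSG00000069171.13, chromosome 13, 78188973 to 78199757, minus strand) had 3576, 3706 and 3514 normalized counts in WT and 3875, 3374 and 3872 in *Rdh10* KO. The groups overlapped, since *Rdh10* KO replicate 2 lay below all WT libraries and the other two above. Its log2 fold change was 0.040 (SE 0.072, interval −0.11 to 0.20, adjusted p = 0.758, limma), and changed sign under median scaling (−0.045) and the correction for GC content and length (−0.012). *Nr2f6* (EAR2, ENSMUSG00000002393.14, chromosome 8, 71374123 to 71381960, minus strand), which is widely expressed, had 3459, 3159 and 3380 normalized counts in WT and 3413, 2395 and 2657 in *Rdh10* KO. Replicate 1 of *Rdh10* KO was at the WT level and the other two were below it. The log2 fold change was −0.26 (SE 0.10, interval −0.48 to −0.030) with an adjusted p-value of 0.110 (limma). Without *Rdh10* KO replicate 1, the library with low optic, forebrain and blood markers, it was −0.40 with an adjusted p-value of 0.010 (limma). Of the 6 fits that left out a library, only this 1 called *Nr2f6*. Without *Rdh10* KO replicate 2 its log2 fold change was −0.15 (adjusted p = 0.445, limma).

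Among the MEIS genes, *Meis1* (ENSMUSG00000020160.18, chromosome 11, 18879817 to 19018985, minus strand) had 908, 861 and 937 normalized counts in WT and 863, 746 and 841 in *Rdh10* KO. The highest *Rdh10* KO library lay just above the lowest WT library. Its log2 fold change was −0.15 (interval −0.33 to 0.040, adjusted p = 0.284, limma). After the correction for GC content and length, that of *Meis1* was −0.31 with an adjusted p-value of 0.0179 (limma). *Meis2* (ENSMUSG00000027210.20, chromosome 2, 115863064 to 116065839, minus strand) had 2057, 2207 and 1810 normalized counts in WT and 2151, 2276 and 2126 in *Rdh10* KO, with a log2 fold change of 0.11 (interval −0.060 to 0.29, adjusted p = 0.379, limma) and overlapping groups, and −0.078 after the same correction. *Meis3* (ENSMUSG00000041420.18, chromosome 7, 16175090 to 16186504, plus strand), a gene studied mainly in the hindbrain, had 689, 724 and 557 normalized counts in WT and 551, 492 and 595 in *Rdh10* KO. WT replicate 3 lay within the *Rdh10* KO range. The log2 fold change of *Meis3* was −0.26 (interval −0.50 to −0.017, adjusted p = 0.133, limma), and it passed the threshold under median scaling (log2 fold change −0.35, adjusted p = 0.0459) but under no other alternative.

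Neither PBX gene passed the test. *Pbx2* (ENSMUSG00000034673.14, chromosome 17, 34591266 to 34597400, plus strand) had 5050, 4910 and 4717 normalized counts in WT and 4523, 4597 and 4869 in *Rdh10* KO, with overlapping groups and a log2 fold change of −0.069 (interval −0.21 to 0.069, adjusted p = 0.519, limma). *Pbx3* (ENSMUSG00000038718.15, chromosome 2, 34171457 to 34373142, minus strand) had 1374, 1300 and 1351 normalized counts in WT and 1461, 1348 and 1240 in *Rdh10* KO. The WT values of *Pbx3* lay inside the *Rdh10* KO range, and its log2 fold change was 0.0061 (interval −0.17 to 0.18, adjusted p = 0.973, limma). As ratios of *Rdh10* KO to WT, the intervals ran from 0.866 to 1.05 for *Pbx2* and from 0.891 to 1.13 for *Pbx3*. The value of *Pbx3* was below 0 under median scaling, quantile normalization and the correction for GC content and length (−0.10 to −0.0074).

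**Figure D3:**
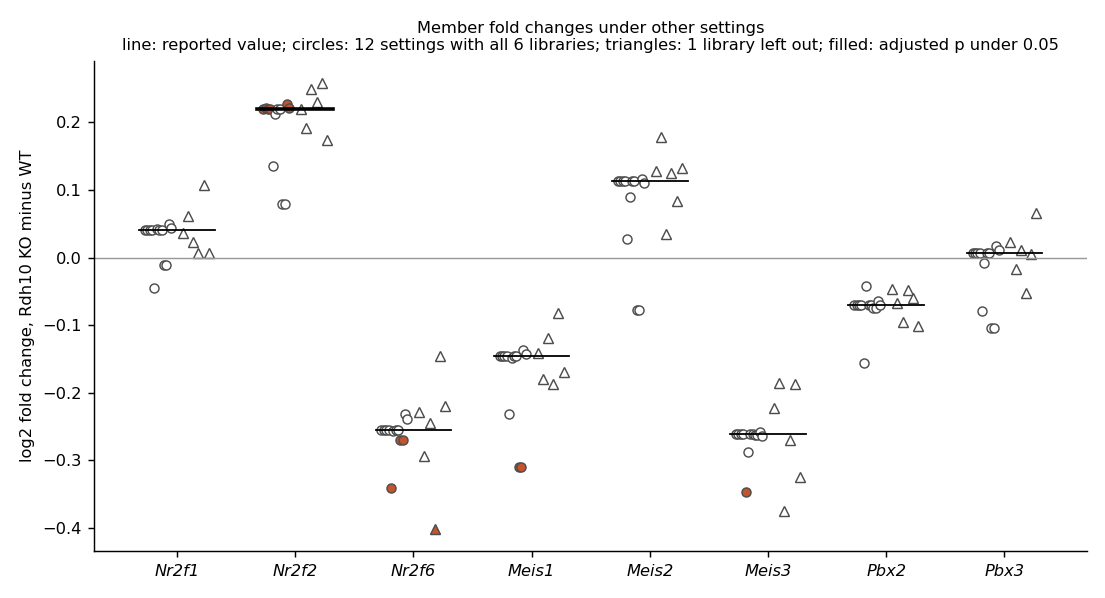
Log2 fold changes of the 8 genes as reported (black line), under 12 other settings with all 6 libraries (circles) and with 1 library left out (triangles), filled where the adjusted p-value is under 0.05. *Nr2f2* stays above 0 and *Nr2f6*, *Meis1*, *Meis3* and *Pbx2* stay below 0 throughout, while *Nr2f1*, *Meis2* and *Pbx3* cross 0.

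Since paralogues can replace each other, their balance was compared within each library, which does not depend on a scaling by 1 factor per library. The ratios used normalized counts without exon length, so their sign does not rank the paralogues by level. Per exon length, the mean ratio of *Nr2f6* to *Nr2f2* was 4.04 in WT and 2.94 in *Rdh10* KO. That of *Meis3* to *Meis2* was 1.23 in WT and 0.952 in *Rdh10* KO. The log2 ratio of *Nr2f1* to *Nr2f2* was 0.59, 0.69 and 0.50 in WT and 0.50, 0.36 and 0.39 in *Rdh10* KO, a difference of −0.18 (SE 0.071). The log2 ratio of *Nr2f6* to *Nr2f2* was 0.54, 0.46 and 0.45 in WT and 0.32, −0.14 and −0.16 in *Rdh10* KO, a difference of −0.48 (SE 0.16). Within both pairs the ratio was lower in each *Rdh10* KO library than in any WT library, though for *Nr2f1* to *Nr2f2* the closest libraries (both 0.50) differed by less than this rounding. The log2 ratio of *Meis3* to *Meis2* behaved likewise, with −1.58, −1.61 and −1.70 in WT, −1.96, −2.21 and −1.84 in *Rdh10* KO and a difference of −0.37 (SE 0.12). After the correction for GC content and length, an alternative added for the ratios after their values were seen, the difference was −0.091 for *Nr2f1* to *Nr2f2* and −0.19 for *Meis3* to *Meis2*, both smaller by more than 1 SD between replicates, and −0.35 for *Nr2f6* to *Nr2f2*. For *Meis1* to *Meis2* (−0.26, SE 0.15) and *Pbx3* to *Pbx2* (0.076, SE 0.11) the groups overlapped, and the latter changed sign without *Rdh10* KO replicate 1 (−0.0049) and after that correction (−0.028). The exact two-sided permutation test gave p = 0.1 for each of the first 3 ratios, 0.3 for *Meis1* to *Meis2* and 0.6 for *Pbx3* to *Pbx2*. Adjusted over the 5 ratios, the lowest of these p-values was 0.167, and a design of 3 against 3 cannot pass 0.05.

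Genes annotated within 10 kb of the members were also examined. *B130024G19Rik*, a noncoding transcript that starts on the opposite strand within *Nr2f2* and overlaps it by 1826 bp, had 38.9, 52.3 and 57.4 normalized counts in WT and 73.8, 108.8 and 84.7 in *Rdh10* KO. It was called higher, by 0.85 on the log2 scale (SE 0.24, adjusted p = 0.0214, limma), and every *Rdh10* KO library lay above every WT library. Of the 6 fits that left out a library, only that without *Rdh10* KO replicate 1 kept the call. At the *Nr2f1* locus, *A830082K12Rik*, which overlaps *Nr2f1* by 1741 bp on the opposite strand, had 243 ± 21.5 and 207 ± 16.8 normalized counts (SD, n = 3 each, adjusted p = 0.256, limma). *Ocel1*, which overlaps *Nr2f6* by 5239 bp on the opposite strand, had 45.4 ± 6.13 in WT and 31.8 ± 6.37 in *Rdh10* KO (log2 fold change −0.52, adjusted p = 0.237, limma), with every *Rdh10* KO library below every WT library. The libraries were directional, but whether strand was used in counting is not given in the sources used here, so reads of such overlapping pairs may be shared. *Notch4*, an endothelial Notch receptor gene next to *Pbx2*, was lower in *Rdh10* KO with 178 ± 24.4 against 260 ± 19.3 normalized counts (log2 fold change −0.55, adjusted p = 0.0123, limma), and again only the fit without *Rdh10* KO replicate 1 kept the call.

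*Nr2f2* marks venous endothelium as well as mesenchyme, and the summed endothelial markers were also higher in *Rdh10* KO. The sum over *Pecam1*, *Cdh5*, *Kdr*, *Tie1* and *Emcn* was 2590 to 2970 normalized counts in WT and 3846 to 4070 in *Rdh10* KO, and 4 of the 5 genes were called higher, namely *Pecam1* (log2 fold change 0.80), *Kdr* (0.71), *Cdh5* (0.39) and *Tie1* (0.36). Over all genes tested, 10.3% were called higher and 9.12% lower. Of genes with a mean above 500 normalized counts, 40.0% were called in one direction or the other. Of the called markers, *Cdh5* and *Tie1* lost their call without any 1 library. *Emcn* was not called (log2 fold change 0.081, adjusted p = 0.660, limma), and the endothelial gene *Notch4*, described above, was called lower. Cranial mesenchyme markers summed to 16484 to 16689 in WT and 15577 to 16204 in *Rdh10* KO, with 2 of 8 called lower, among them *Alx4*, and 1 higher (*Col1a2*). Of 6 optic vesicle and retina markers, *Lhx2* was called lower and *Rax* and *Six3* higher, of 6 forebrain markers *Dlx2* was called higher, and of 5 blood markers 0 were called. Surface ectoderm markers summed to 5070 to 5563 in WT and 5088 to 6047 in *Rdh10* KO, with 1 of 5 called higher (*Cdh1*). Of 5 heart markers, *Actc1* was called higher (51.6 ± 15.5 to 152 ± 84.9 normalized counts) and carried the rise of their sum from 66.8 to 97.2 in WT to 107 to 268 in *Rdh10* KO. Over the heart list, the median was −1.23 on the log2 scale, and *Myl7* had 22.0 ± 6.54 and 9.27 ± 2.68 normalized counts without being called (limma). Calls lost without any 1 WT library were those for *Col1a2*, *Lhx2*, *Rax*, *Six3*, *Cdh1* and *Actc1*, and that for *Dlx2* was lost without WT replicate 2. The part of these tissues in the result for *Nr2f2* was not tested.

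**Figure D4:**
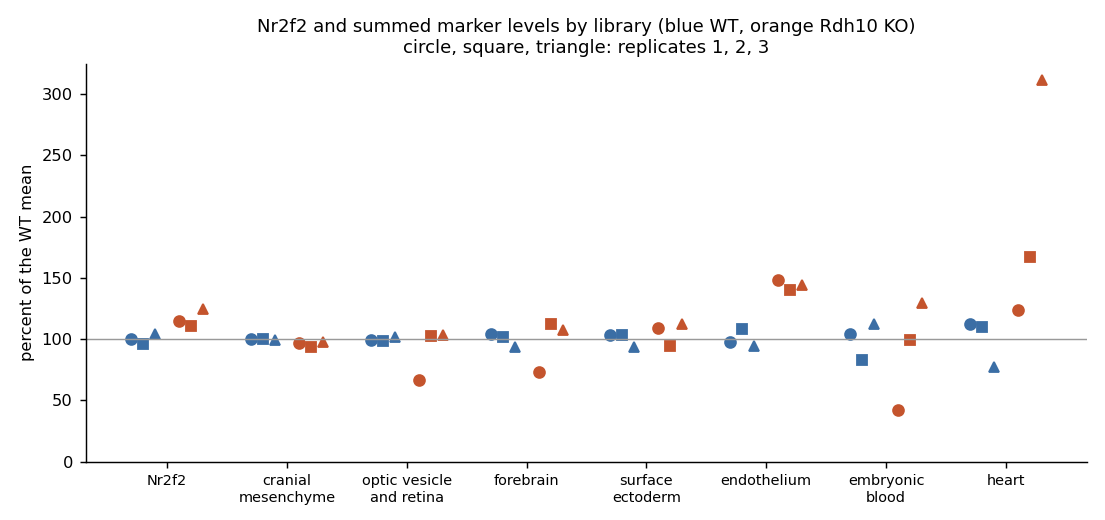
*Nr2f2* and the summed markers of 7 tissues in each library (circle, square and triangle for replicates 1, 2 and 3) as percent of the WT mean, WT in blue and *Rdh10* KO in orange. All *Rdh10* KO points of *Nr2f2* and endothelium lie above the WT points, the heart sum is mostly *Actc1*, and *Rdh10* KO replicate 1 is low for optic, forebrain and blood markers.

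Several known partners of these factors changed. Of 6 genes for proteins that bind COUP-TFs, 2 were called lower and 3 higher, where 9.12% of all genes tested were called lower and 10.3% higher. *Bcl11b* (CTIP2), a zinc finger factor first identified through its binding to COUP-TFs, fell from 205, 196 and 195 normalized counts in WT to 43.7, 45.9 and 77.6 in *Rdh10* KO, which is −1.88 on the log2 scale with an SE of 0.22 (limma adjusted p = 6.82e-05). The groups lay far apart, and the call was kept under all 18 alternatives. Its paralogue *Bcl11a* (CTIP1) fell from 258, 324 and 205 to 63.0, 124 and 162 normalized counts, which is −1.25 on the log2 scale with an SE of 0.27 (limma adjusted p = 0.00560). Its value was lowest in *Rdh10* KO replicate 1, and the call was kept without that library but lost without *Rdh10* KO replicate 2 or any 1 WT library. The corepressor gene *Ncor1* rose from 3368 ± 236 to 4500.2 ± 391 normalized counts (log2 fold change 0.42), with an adjusted p-value of 0.00217 (limma), and lost its call without any 1 WT library, after the correction for GC content and length and without the intensity trend of limma. *Zfpm2* (FOG2), a cofactor of GATA factors that also binds COUP-TFII, rose from 53.4 ± 13.1 to 97.6 ± 13.3 (log2 fold change 0.89, adjusted p = 0.0133, limma), while that of *Zfpm1* was 0.27 with an adjusted p-value of 0.250. The call for *Zfpm2* was lost without WT replicate 2 or 3 or *Rdh10* KO replicate 2 or 3.

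Of the 13 other TALE homeobox genes tested, 3 were called higher and 0 lower, where 10.3% of all genes tested were called higher and 9.12% lower. *Pknox2* (PREP2), which like the MEIS proteins dimerizes with PBX, rose from 1186, 1036 and 1077 to 1458, 1466 and 1437 normalized counts (log2 fold change 0.40 with an SE of 0.078, limma adjusted p = 0.00235). It kept its call with each library left out in turn, but not after the correction for GC content and length or without the intensity trend of limma. The Iroquois genes *Irx1* and *Irx4* rose, with log2 fold changes of 0.60 (adjusted p = 0.00478, limma) and 0.65 (adjusted p = 0.0366). The call for *Irx4* was lost without any 1 library, and that for *Irx1* without any 1 WT library or *Rdh10* KO replicate 3. *Pbx4* was at 0.40 on the same scale with an adjusted p-value of 0.177.

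Of 5 other NR2 receptor genes, *Nr2e1* (TLX), a forebrain and retinal progenitor gene, was called lower, from 831 ± 40.0 to 554 ± 219 normalized counts (log2 fold change −0.67, adjusted p = 0.0471, limma). It had 309 normalized counts in *Rdh10* KO replicate 1 and 728 and 627 in the others, and its log2 fold change without that library was −0.30. The call was lost without any 1 library (adjusted p up to 0.325). Of 6 eye regulators tied to COUP-TF or MEIS genes, *Otx2* rose from 2220 ± 62.1 to 3214 ± 410 normalized counts (log2 fold change 0.53, adjusted p = 0.000812, limma), a call lost without WT replicate 1 or 2. *Six3* was called higher with overlapping groups (log2 fold change 0.48, adjusted p = 0.0453, limma, and 0.72 without *Rdh10* KO replicate 1), and *Pax6* was at −0.11 with an adjusted p-value of 0.494. The call for *Six3* was lost without each of the other 5 libraries. Among all genes tested, 9.12% were called lower and 10.3% higher.

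Anterior Hox genes, whose products pair with PBX and MEIS in the hindbrain and neck, had few reads in this head tissue. Of 12 listed, 10 were in the table and 7 were tested, and the highest value in any library was 22.9 normalized counts, for *Hoxa2* in *Rdh10* KO replicate 1. *Hoxd1* had 0 reads in the WT libraries and 7.16, 7.47 and 4.71 normalized counts in *Rdh10* KO (adjusted p = 0.00482, limma). Its *Rdh10* KO mean was 1.93-fold the highest limit of 3 reads in a WT library. *Hoxb3* had 7.16, 6.68 and 0.940 normalized counts in WT and 0 reads in *Rdh10* KO (adjusted p = 0.0237, limma), and lost its call without WT replicate 1 or 2. Its WT mean was 1.40-fold the highest limit of 3 reads in a *Rdh10* KO library, but WT replicate 3 lay below that limit. DESeq2 on the recovered reads called neither gene.

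As a reference, 6 of 8 genes of RA response and transport were called lower and 0 higher, where 9.12% of all genes tested were called lower. *Crabp2*, which carries RA to its receptors, fell from 8914 ± 504 to 5791 ± 662 normalized counts (SD, n = 3 in each group, log2 fold change −0.63), and *Stra6*, the retinol uptake receptor gene, from 651 ± 20.9 to 431 ± 15.9 (log2 fold change −0.60). *Rarb*, with the DR5 printed above, had a log2 fold change of −1.01, the RA-degrading enzyme gene *Cyp26b1* −1.18 and the retinaldehyde reductase gene *Dhrs3* −1.04. The calls for *Cyp26b1*, whose groups overlapped, and *Dhrs3* were lost without any 1 WT library and without 2 of the 3 *Rdh10* KO libraries. Not called were *Cyp26a1* (−0.37, adjusted p = 0.183, limma) and *Cyp26c1* (0.59, adjusted p = 0.320).

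**Figure D5:**
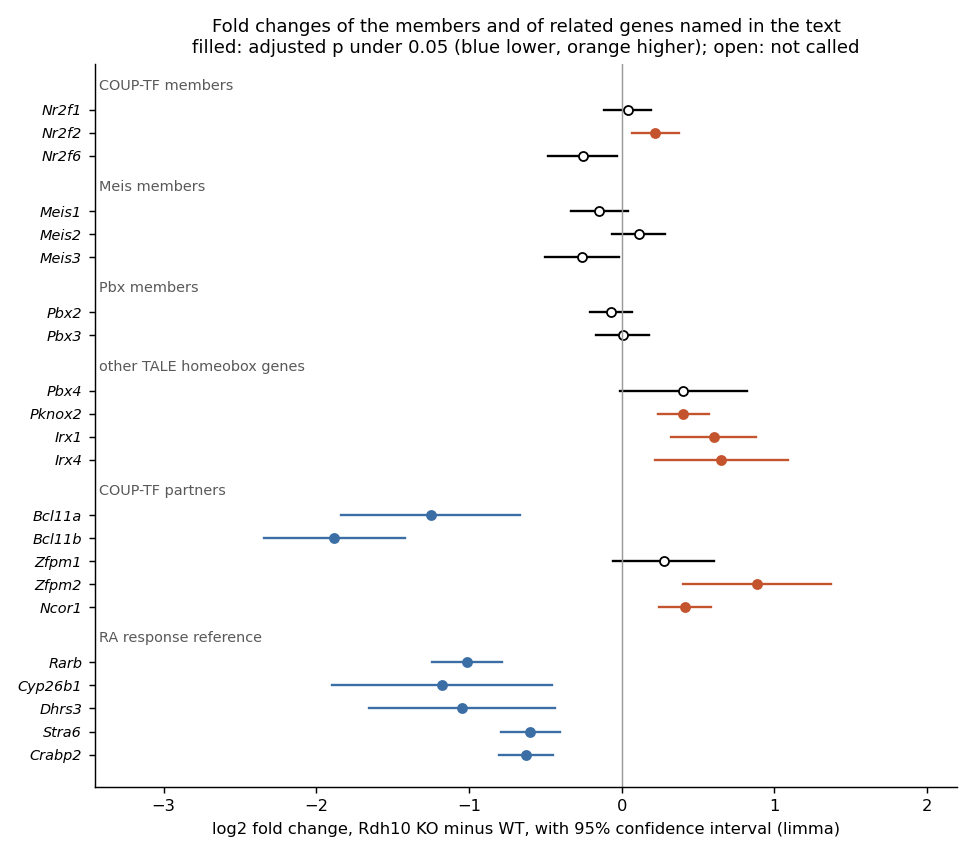
Log2 fold changes, *Rdh10* KO minus WT, with 95% confidence intervals (limma) of the 8 genes and of related genes named in the text (TALE genes, COUP-TF partners and RA response genes), filled where called (blue lower, orange higher). The 8 genes lie between −0.26 and 0.22, while *Bcl11b* lies at −1.88 and *Rarb* at −1.01.

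Genes whose values over the 6 libraries were most like those of each member were found by the root mean square difference of centred log2 values among 15271 genes with a mean above 10. The closest to *Nr2f2* were *Satb1* (difference 0.0261, log2 fold change 0.25) and *Fam160b1* (difference 0.0288, log2 fold change 0.26), to *Nr2f1* *Dennd2a* and *Lmx1b*, to *Nr2f6* *Slc39a11* and *Ccdc137*, to *Meis1* *Nup62* and *Lrfn4*, to *Meis2* *4931406C07Rik* and *Wasf1*, to *Meis3* *Tubb2a* and *Angptl4*, to *Pbx2* *Skiv2l* and *Napa*, and to *Pbx3* *Naa25* and *Lman2l*. With so many genes and 6 libraries, such closeness describes these libraries only.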

How the data were processed

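RNA-seq of E10 eye tissue was analysed for 6 libraries, 3 per genotype. According to the study's methods, directional poly(A)-selected libraries were aligned to mm10 with TopHat, transcript abundance was computed by Expectation–Maximization, FPKM was used for normalization, and edgeR was used for the study's own test. The deposited signal is not FPKM: the authors' values are whole reads divided by 1 median-of-ratios size factor per library (0.850 to 1.40), and 99.98% to 100% of the values came out whole within 0.0051. They were therefore treated as normalized counts. Since these are normalized values, a log-scale test was the main one, with count tests on recovered reads as alternatives. The members and lists were chosen with earlier results of these data known. The table's 1 line without a gene was dropped, and 26296 of 26437 genes matched GENCODE mouse release M21 (GRCm38).

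Values were transformed to log2(value + 0.1), and genes with a mean above 0.5 were compared by limma 3.58.1 under R 4.3.3 (intensity trend, no other term). Named were the 8 members, called genes of the lists (or, where none was called, up to 2 abundant ones), *Rdh10*, and the 2 genes most like each member. A few others were chosen after their values were seen (*Pbx4*, *Pax6*, *Zfpm1*, *Hoxa2*, *Cyp26a1*, *Cyp26c1*, marker genes, and genes near members). Some genes of the lists are counted but not reported here. Nothing says whether replicates shared litters. Limits for genes at 0 used 3 reads in a library, were set against the mean of the other group, and cover counting error in the group at 0 only. Alternatives used edgeR 4.0.16 and DESeq2 1.42.0 on recovered reads, other pseudocounts, filters and scalings, a GC content and length correction, a replicate block, and leaving out each library. Tests were tried on simulated data. Exact tests and plots used scipy 1.17.1 and matplotlib 3.10.9 in Python 3.11.15.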

Additional observations from a re-analysis of the deposited data

How the results depend on the processing

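Of the 8 genes, *Nr2f2* was called under 6 of 12 alternatives with all 6 libraries and under 0 of 6 with a library left out. Its log2 fold change was 0.13 with median scaling, 0.21 with quantile normalization, 0.22 without the intensity trend and 0.080 with the GC content and length correction, with or without the block (adjusted p = 0.231, 0.0618, 0.196, and 0.473 or 0.472, limma). *Nr2f6* passed the threshold with median scaling (−0.34) and with the GC content and length correction (−0.27, with or without the block), *Meis1* with that correction (−0.31, both ways) and *Meis3* with median scaling (−0.35). Uncalled log2 fold changes changed sign for *Nr2f1* with median scaling (−0.045) and the GC content and length correction (−0.012, both ways), for *Meis2* with that correction (−0.078, both ways), and for *Pbx3* with median scaling (−0.080), quantile normalization (−0.0074) and that correction (−0.10, both ways). Over all genes, called decreases were 47.0% of calls as reported, 64.0% with median scaling and 62.2% with the GC content and length correction, and these settings shifted the median of all genes by −0.084 and −0.063.

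Members called lower numbered 2 with median scaling, 2 with the GC content and length correction (with or without the block) and 2 at an unadjusted p-value under 0.05. Over all genes, 2091 of 22921 were called lower as reported and 3033 of 22921 with median scaling. With the GC content and length correction, 3044 of 22800 were called lower (2595 with the block). At an unadjusted p-value under 0.05, 30.7% of all genes passed in either direction (limma). Members called higher numbered 0 with median scaling, quantile normalization, no trend, the block, the GC content and length correction (both ways) and the log2 cut-off. Over all genes, 2360 were called higher as reported. In the same order, the settings called 1709, 2124, 448, 1715, 1848 (1576 with the block) and 552 genes higher. Of the related genes, 10 were called lower and 9 higher, which became 4 and 2 without the trend, 5 higher with the GC content and length correction and the block, and 2 higher with the log2 cut-off. The cause of these changes was not tested. With 1 library left out, log2 fold changes ranged from 0.17 to 0.26 for *Nr2f2*, from −0.40 to −0.15 for *Nr2f6* and from −0.053 to 0.066 for *Pbx3*, 0 to 1 members were called lower and 0 higher, and 5 to 8 related genes were called lower and 2 to 7 higher. Over all genes, the same fits called 427 to 1895 lower and 850 to 1983 higher. The differences of the 5 paralogue ratios moved by less than 1 SD between replicates under other pseudocounts, the block, leaving out a library and quantile normalization. With the GC content and length correction, added with quantile normalization after seeing the data, *Nr2f1* to *Nr2f2* (−0.091) and *Meis3* to *Meis2* (−0.19) moved by more.

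With the replicate number as a block, the log2 fold change of *Nr2f2* was 0.22 with an adjusted p-value of 0.0828 (limma). Deviations from the group mean in libraries with the same number had r = −0.026, −0.035 and −0.074 across 15272 genes. Correlations over all genes cannot tell whether such libraries shared a litter or a batch. No other call among the 8 genes changed with the block alone.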
